A study of Mus musculus with 6 samples.

Results

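The Zbtb genes encode a family of transcription factors, and their chromatin was examined here in Beko cells, which are mouse T-cell progenitors with active Notch signaling. Members were all protein-coding genes of the GENCODE annotation of mouse build mm9 whose symbol starts with Zbtb, with Zbtb7b and Zbtb16 set apart, which gave 35 of 22380 protein-coding genes. Zbtb20 is split into 2 gene models and was joined to 1. Zbtb18 was not found under that symbol and is not analysed here. One member, Zbtb8os, carries the name only because it lies on the opposite strand of a Zbtb gene, and it encodes archease, a cofactor of tRNA ligation, rather than a zinc finger factor.

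Zbtb proteins pair a BTB domain, through which they form dimers and recruit corepressors, with C2H2 zinc fingers that read DNA. Several members set fate or fitness of lymphocytes, so the family is often followed in thymocytes and their precursors. Others bind methylated CpG, telomere repeats or genes of the cell cycle, and are expressed in many tissues.

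ATAC-Seq, in which a transposase cuts accessible DNA, was performed on Beko cells, a line in which the Notch pathway is constitutively on. There were 6 libraries, 3 from cells treated for 24 h with DMSO and 3 from cells treated for 24 h with DAPT, a γ-secretase inhibitor (GSI) that blocks release of the active Notch fragment. All libraries came from 1 cell line, and nothing states that replicates were separate cultures. The file used here is 1 list of 32527 peaks for both treatments, with a single entry per peak and no height. Each statement is therefore presence or absence of a peak in the joint list, no GSI against DMSO difference was analysed, the depth of the libraries was not used here, and no replicate error can be given.

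The peak list was checked against markers of cell identity. Of 9 T-cell progenitor genes found, 7 had a peak within 1 kb of a start (Cd3e, Cd3g, Bcl11b, Tcf7, Lck, Gata3 and Rag1), while Cd3d and Il2ra had none. Ptcra, the other T-cell progenitor gene chosen, was not found under that symbol. No gene had such a peak among 4 of B cells, 4 of myeloid and dendritic cells, 2 of erythroid cells and 4 of other tissues. Such a peak was present at 46.9% of all coding genes. One of the myeloid and dendritic genes is Zbtb46, itself a member, so its lack of a peak is not a separate result.

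Most Zbtb genes were accessible at a start. A peak within 1 kb of an annotated transcript start, called a promoter peak from here on, was present at 29 of 35 members, or 82.9% (95% Wilson interval 67.3 to 91.9, counting error only). The same held for 46.9% of all protein-coding genes and for 63.6% of 371 genes with numbered Zfp symbols, the larger family of zinc finger genes. The family differs from coding genes at large in base composition. A start was called CpG-rich when the 500 bp on either side of the 5′ end reached 50% GC together with a CpG ratio (observed over expected) of 0.6 or more, and this was true of 28 of 35 members (80%) against 44.1% of all coding genes. Among coding genes with a CpG-rich start, 76.2% had a promoter peak, and among such members 24 of 28 (85.7%) did. Of the numbered Zfp genes with such a start, 150 of 182 (82.4%) did. Of the 7 members with a CpG-poor start, 5 had a promoter peak (71.4%). The share was 23.8% of all 12501 coding genes of that kind and 45.5% of 189 such Zfp genes. Base composition was read at the 5′ end and the peak at any start, and only 3 of the 5 members had the 5′ end inside a peak. At Zbtb12 and Zbtb38 the 5′ end lay 14508 and 6216 bp from a peak, and the promoter peak sat at another start, with a CpG ratio over the peak of 0.788 and 0.86. Zbtb6 and Zbtb26, both CpG-poor, have 1 peak in common at their 5′ ends. For the CpG-rich members the 95% Wilson interval, counting error only, was 68.5 to 94.3, beside the background of 76.2%. Zbtb1 and Zbtb25, both CpG-rich, also share a peak, so the members are not independent, and a difference from the background was not tested.

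**Figure D1:**
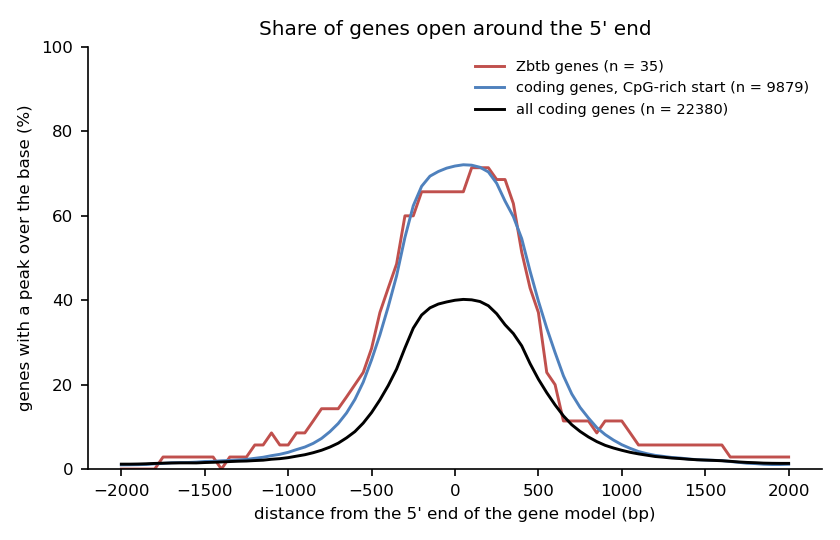
Share of genes with a peak over each position (y axis, %) by distance from the 5′ end of the gene model (x axis, bp), for 35 Zbtb genes, all coding genes and coding genes with a CpG-rich start. The Zbtb line reaches 71.4%, close to the 72.1% of CpG-rich genes, while all coding genes reach 40.2%.

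In the profile around the 5′ end members lay close to coding genes with a CpG-rich start, above them at some positions and below at others. The shares were 60% and 54.9% at -300 bp, 68.6% and 63.5% at 300 bp, and 37.1% and 39.8% at 500 bp. Within 500 bp of the 5′ end members lay above all coding genes. At the 5′ end itself 65.7% of members lay under a peak, against 71.8% of CpG-rich genes and 40% of all coding genes. Over 2 kb centred on that end the median accessible share of a member was 40.3%, beside 43.4% for coding genes with a CpG-rich start and 0% for all coding genes, most of which had no peak there. Where a promoter peak existed, its size was close to that at other genes. The widest promoter peak of a member had a median of 925 bp (95% interval of the median from order statistics 807 to 1205), beside 926 bp over all coding genes. Of 141 annotated member starts 73 (51.8%) lay inside a peak, beside 37.2% of those of coding genes.

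The sequences just before the starts make the contrast in base composition visible. The 150 bases before the 5′ end of the gene model are shown for members with a CpG-rich start and a promoter peak (Zbtb17 and Zbtb24), with a CpG-poor start and a promoter peak (Zbtb3) and with a CpG-poor start and no promoter peak (Zbtb32). They are mm9 bases read 5′ to 3′ on the strand of the gene, with every CG in capitals (Zbtb32 lies on the minus strand, the others on the plus strand).
Zbtb17, chr4:141000419-141000568: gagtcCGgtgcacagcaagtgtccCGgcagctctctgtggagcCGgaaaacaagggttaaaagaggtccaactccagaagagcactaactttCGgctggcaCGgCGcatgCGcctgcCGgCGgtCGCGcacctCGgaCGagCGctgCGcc
Zbtb24, chr10:41170039-41170188: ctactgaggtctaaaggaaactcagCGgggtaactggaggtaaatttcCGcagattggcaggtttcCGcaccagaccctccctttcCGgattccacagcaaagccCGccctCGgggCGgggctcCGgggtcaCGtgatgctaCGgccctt
Zbtb3, chr19:8876836-8876985: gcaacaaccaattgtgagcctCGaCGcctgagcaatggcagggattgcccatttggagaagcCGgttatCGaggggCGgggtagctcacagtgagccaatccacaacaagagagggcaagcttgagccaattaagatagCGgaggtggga
Zbtb32, chr7:31383929-31384078: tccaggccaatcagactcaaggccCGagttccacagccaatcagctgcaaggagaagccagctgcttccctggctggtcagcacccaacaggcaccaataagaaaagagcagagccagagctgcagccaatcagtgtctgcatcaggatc
Zbtb17 held 15 CG and Zbtb24 held 10, while Zbtb3 held 6 and Zbtb32 held 1. The stretch of Zbtb32 instead held 4 copies of the CCAAT box, read as ATTGG on either strand, and that of Zbtb3 held 3. In 300 bp windows running from 250 bp before to 50 bp after the 5′ end, ATTGG was found in 40% of members and 37.9% of all coding genes.

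**Figure D2:**
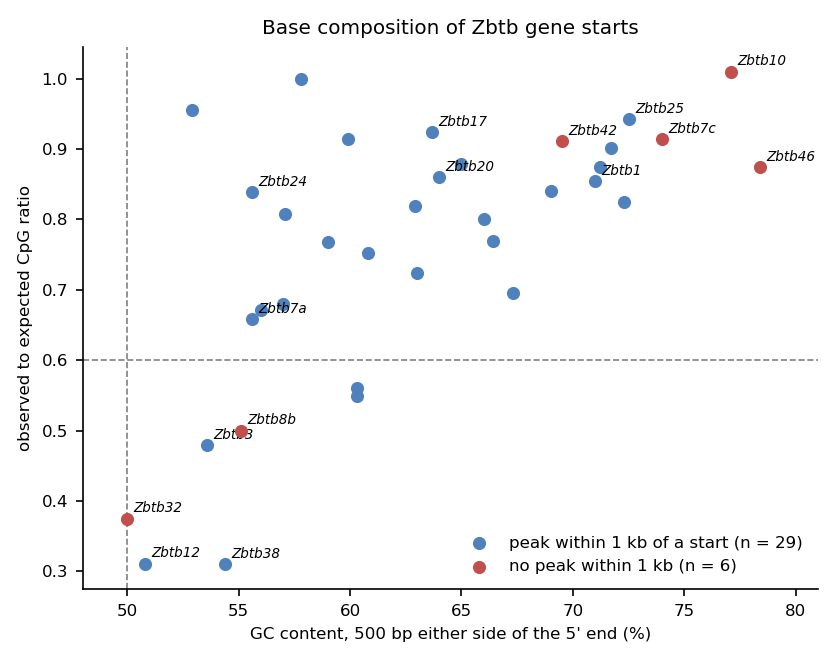
GC content (x axis, %) and observed to expected CpG ratio (y axis) of the 500 bp on either side of the 5′ end for each of 35 Zbtb genes, coloured by the presence of a promoter peak, with dashed lines at the limits for a CpG-rich start. Of the 6 genes with no promoter peak, Zbtb10, Zbtb46, Zbtb7c and Zbtb42 lie in the CpG-rich area at the upper right and Zbtb32 and Zbtb8b in the CpG-poor area.

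No promoter peak was found at Zbtb7c, Zbtb8b, Zbtb10, Zbtb32, Zbtb42 and Zbtb46. The nearest peak to a start of Zbtb7c was 79199 bp away, that of Zbtb10 51575 bp and that of Zbtb46 36997 bp. Zbtb46 is a marker of classical dendritic cells. Zbtb10, a telomere repeat binding protein, was the single member with no peak in the gene plus 50 kb, a state shared by 22.8% of coding genes. Zbtb42, a factor of skeletal muscle, had its nearest peak 3084 bp from a start, and that peak lay 312 bp from a start of Akt1. By GENCODE starts, all 4 CpG-rich genes in this set except Zbtb42 lay farther from a peak than a median of 29022 bp. That median (quartiles 8673 to 96937) was taken over the 2348 coding genes with a CpG-rich start and no promoter peak.

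The other members without a promoter peak, both CpG-poor, were closer to one. Zbtb8b had a peak 4249 bp from its 5′ end. Zbtb32 had one 1087 bp from its 5′ end, just outside the limit of 1 kb, and on the inner side of that limit Zbtb8a had its promoter peak 85 bp from its single start. The remaining 28 members with a promoter peak had a start inside it.

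The lymphoid members had a promoter peak in a share close to that of the other members. Of 7 members with known roles in lymphocytes 6 had a promoter peak (85.7%), and of the 28 others 23 did (82.1%). The share was 46.9% for all coding genes and 76.2% for those with a CpG-rich start. Among the 6, Zbtb1 and Zbtb25 shared a peak at their starts, and the call of Zbtb20 held at GENCODE starts but not at its RefSeq start. The windows of the lymphoid members, the gene plus 50 kb on either side, held between 4 and 9 peaks with a median of 6, beside 5 for the other members.

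Zbtb1, a factor needed for T-cell development, and Zbtb25, described as a repressor of NFAT targets in T-cells, shared the second widest promoter peak of the family. The starts of these genes, on opposite strands, lay 706 bp apart, and the peak at chr12:77470148-77471787 spanned both over 1640 bp. It held 12 copies of GGGCGG, the core bound by SP factors, and 2 of TGGGAA, the core bound by RBPJ, counted on both strands. An exon-free stretch of 240 bases between the starts, with 1 copy of each core, is shown on the plus strand, with GGGCGG and TGGGAA of either strand in capitals.
Zbtb1-Zbtb25, chr12:77470558-77470797: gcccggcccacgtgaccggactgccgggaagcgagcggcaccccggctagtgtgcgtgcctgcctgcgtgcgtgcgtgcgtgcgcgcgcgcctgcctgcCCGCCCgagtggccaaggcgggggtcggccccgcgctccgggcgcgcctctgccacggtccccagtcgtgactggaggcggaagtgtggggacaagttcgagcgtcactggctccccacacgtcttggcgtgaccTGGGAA
A second peak of 337 bp lay in the first part of Zbtb1, 735 bp from its start. In the gene plus 50 kb Zbtb1 had 7 peaks and Zbtb25 had 6, all of them among the 7. The same 3 peaks in both windows lay away from any start, that is more than 1 kb from the starts of all annotated genes. The intronic peak of Zbtb25 was 766 bp wide and lay 6836 bp from its start.

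Zbtb7a, which restrains Notch signals in lymphoid progenitors, had the widest promoter peak. It spanned 2289 bp at chr10:80598842-80601130, and only 0.267% of coding genes with a promoter peak had one at least as wide. Of 6 annotated starts 5 lay inside this peak, but the outermost 5′ end lay 877 bp before it, so the peak covered 6.2% of the 2 kb around that end. The peak held 18 copies of GGGCGG and none of TGGGAA. An exon-free stretch of 240 bases with 3 of these copies is shown on the plus strand, with that core in capitals on either strand.
Zbtb7a, chr10:80599652-80599891: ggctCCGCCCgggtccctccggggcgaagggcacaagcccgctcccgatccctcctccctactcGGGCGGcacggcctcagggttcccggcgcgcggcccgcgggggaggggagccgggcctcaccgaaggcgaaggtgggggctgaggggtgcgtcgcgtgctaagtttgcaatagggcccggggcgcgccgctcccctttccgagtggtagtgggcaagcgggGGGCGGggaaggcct
The window of Zbtb7a held 9 peaks, 4 of them at starts of other genes, including Map2k2 and Pias4, and 4 away from any start. None of the away peaks was nearest to Zbtb7a itself.

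Zbtb17, or Miz-1, a partner of Myc needed for early T- and B-cells, had a promoter peak of 763 bp at chr4:141000349-141001111 with 7 copies of GGGCGG and none of TGGGAA. A peak of 679 bp lay in its own intron, 8126 bp from the nearest start, and held 1 TGGGAA. Zbtb24, the gene altered in a form of the ICF immunodeficiency syndrome, had a promoter peak of 831 bp at chr10:41169781-41170611 over its single start, and the peak held 2 TGGGAA, one on each side of the start. Zbtb20, a factor of plasma cells and of neurons, had a promoter peak of 1503 bp at chr16:42875029-42876531 with 17 copies of GGGCGG and 2 of TGGGAA. The 30 bases round each of these TGGGAA matches are shown on the plus strand, which is the strand of all 3 genes, with the core in capitals and written as TTCCCA where it lies on the other strand.
Zbtb24, chr10:41169925-41169954: ggatgagtaactTGGGAAggaaagcgagga
Zbtb24, chr10:41170485-41170514: tgcgtgggttcgTTCCCAtatttctcatat
Zbtb20, chr16:42875583-42875612: tcgaccaatagtTTCCCAgctcttggatca
Zbtb20, chr16:42876351-42876380: tggagtcgcggcTTCCCAgaagaggagctg
Zbtb17, chr4:141011010-141011039: tagtgaggatttTGGGAAtgacctgacact
In the Zbtb20 peak 1 of the matches lay in an annotated exon, upstream of the 5′ end of Zbtb20 and so of another gene. The centre of this peak lay in an exon of 4932412D23Rik. The other match lay outside exons. Zbtb20 is the longest member at 767 kb, and over that length it was sparse, with 5 peaks and 0.577 peaks per 100 kb of gene plus flanks, against a median of 4.02 for members and 2.37 for coding genes. Of its 20 starts 5 lay inside a peak, and a second promoter peak of 562 bp lay at one of them. One of the other peaks lay 25962 bp from Tigit, an inhibitory receptor of T-cells, to which it was closer than to Zbtb20.

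Zbtb32, which restrains lymphocyte responses, was the lymphoid member without a promoter peak. Its window nevertheless held 9 peaks, of which 6 lay at starts of other genes, among them Wbp7, Psenen and Cox6b1. Of the 3 away peaks, 1 was nearest to Zbtb32 itself. The peak closest to its start was 302 bp wide and held no TGGGAA, and the window peak at Wbp7 held 4.

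**Figure D3:**
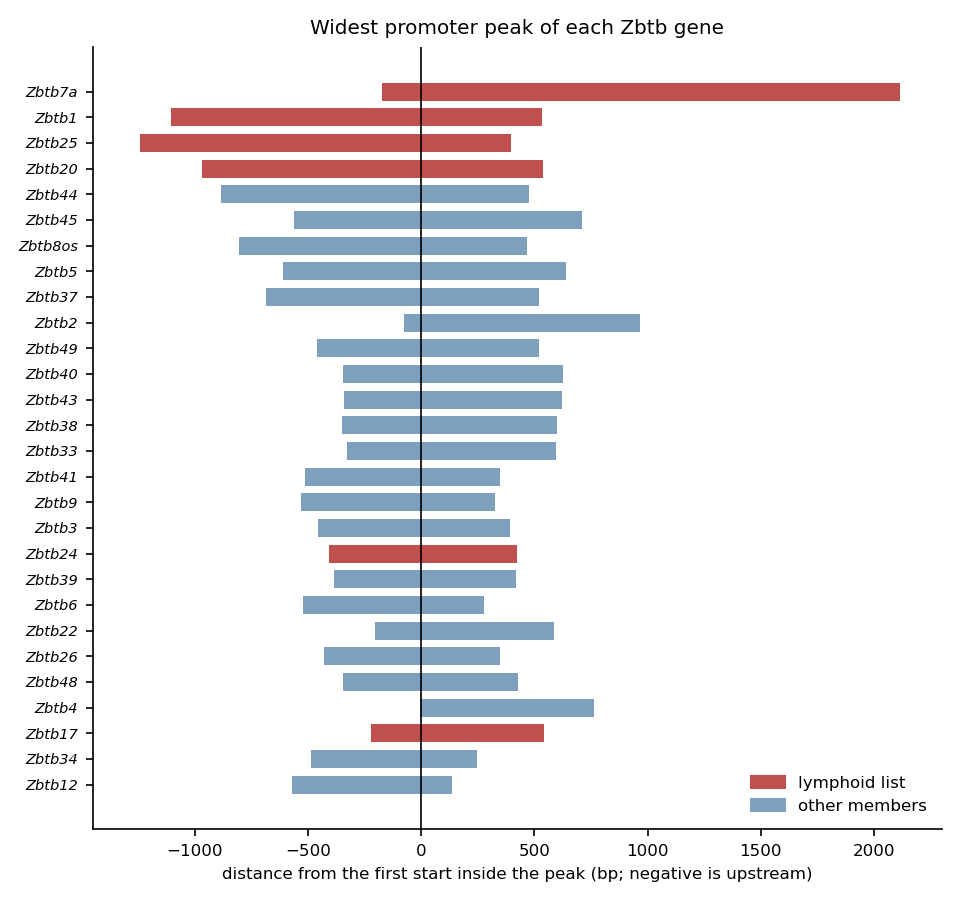
Extent of the widest promoter peak (x axis, bp from the first start inside it, upstream to the left) for the 28 Zbtb genes with a start inside a peak, ordered by width, with the lymphoid members in red. Zbtb7a extends 2114 bp downstream, while Zbtb1, Zbtb25 and Zbtb20 extend between 965 and 1240 bp upstream.

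The spans of the promoter peaks showed how they were placed. For the 28 members the median reach from the first start in the peak was 457 bp on the upstream side and 520 bp on the downstream side. Zbtb7a reached 2114 bp downstream and 174 bp upstream, and Zbtb2, a repressor of Cdkn1a, reached 965 and 77 bp. Zbtb25 and Zbtb1 extended upstream instead, into each other's promoter, by 1240 and 1105 bp. Zbtb44, with 1364 bp, was the widest promoter peak outside the lymphoid list.

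The members that bind methylated CpG, Zbtb4, Zbtb33 and Zbtb38, all had a promoter peak, of 768, 925 and 949 bp, as did 82.9% of the family and 46.9% of coding genes. Zbtb33, or Kaiso, had no other peak in its window, which left it with 1 peak as Zbtb40 had. Zbtb38 stood at the other end with 16 window peaks, a number reached by 0.469% of coding genes. Its annotated 5′ end was CpG-poor with a ratio of 0.31 and lay 6216 bp from the nearest peak, while the promoter peak at chr9:96619669-96620617 sat inside the gene model over 3 of its 13 starts. The other 15 window peaks were all away from any start, and Zbtb38 was the nearest coding gene to each of them. They were between 267 and 1149 bp wide, and 5 lay in its introns. Away peaks that held at least 3 TGGGAA were found at chr9:96626188-96626691, in an intron 2764 bp from a start, and at chr9:96695737-96696359, 42487 bp upstream of the gene. These peaks were picked for that count, and the share of away peaks that reach it was not computed. Over whole peaks the core was found in 31% of member away peaks and 39.2% of all away peaks. The 30 bases round each match in the picked peaks are shown on the minus strand, the strand of the gene, with the core of either strand in capitals.
Zbtb38, chr9:96626220-96626249: agaatcagaaaaTGGGAAcaaagggagcag
Zbtb38, chr9:96626294-96626323: aggagtatcatcTGGGAAgtgaaatggggc
Zbtb38, chr9:96626329-96626358: tctgcagggtatTGGGAAacccacgtgcac
Zbtb38, chr9:96695891-96695920: gcctgcaggctgTGGGAAcaagtgtgaaca
Zbtb38, chr9:96696036-96696065: ctactggtccccTGGGAAacagatcatggt
Zbtb38, chr9:96696252-96696281: aaagggctgaatTTCCCAgaaagcttcgcc
The density of Zbtb38 was 9.41 peaks per 100 kb, second to the 10.6 of Zbtb22. Unlike Zbtb38, Zbtb22 had most of its 11 peaks at neighbours, with 8 at starts of other genes of the extended major histocompatibility complex such as Daxx and Tapbp.

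**Figure D4:**
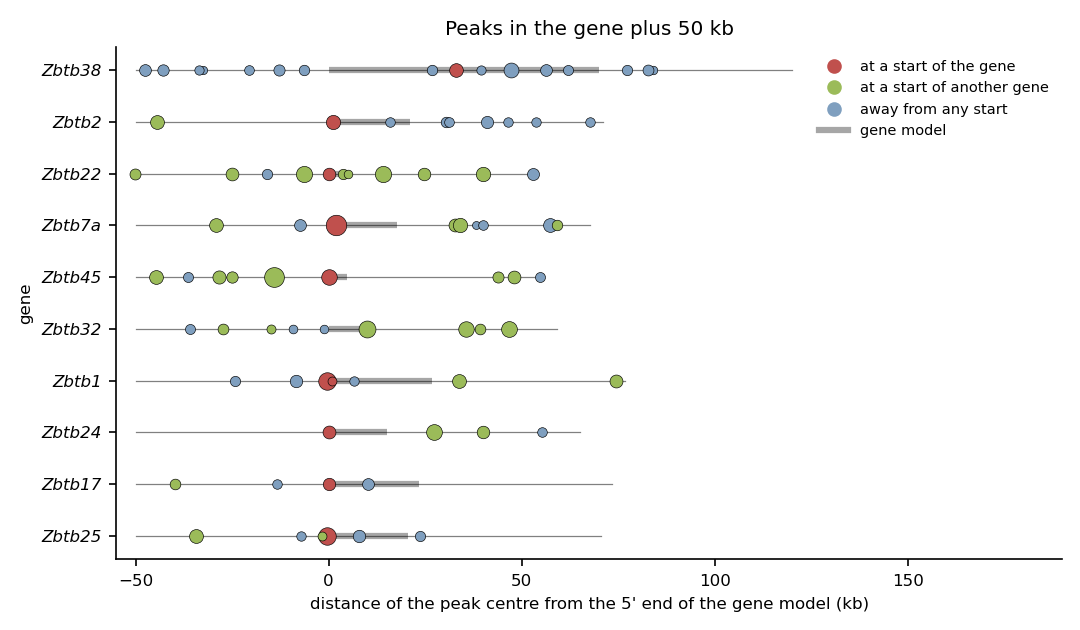
Centres of peaks (x axis, kb from the 5′ end of the gene model, downstream to the right) in the gene plus 50 kb for 10 Zbtb genes, with the area of a circle increasing with peak width, thick grey lines for gene models and colours for the class of peak. Zbtb38 and Zbtb2 are lined with peaks away from any start, whereas the peaks round Zbtb22, Zbtb45 and Zbtb32 lie mostly at starts of other genes.

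The members listed as regulators of Cdkn1a, an inhibitor of cyclin-dependent kinases, were Zbtb2, Zbtb4, Zbtb5 and Zbtb17. All 4 had a promoter peak, in a family where 82.9% did and beside 46.9% of coding genes. They had 4 to 9 window peaks. Zbtb2 had 9, of which 7 were away from any start. One of these lay in its own intron, 15087 bp from a start, and the other 6 lay downstream of it over Akap12. Zbtb5 had a promoter peak of 1251 bp that also covered the start of 1700055D18Rik on the opposite strand, 418 bp away.

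Of the telomere binders, Zbtb48 had a promoter peak of 774 bp and Zbtb10 had none. Of 3 muscle and neural members analysed, Zbtb20 and Zbtb45 had one and Zbtb42 did not. A promoter peak was present at 82.9% of the family and 46.9% of coding genes. Zbtb45, a factor of glial differentiation, had a promoter peak of 1272 bp without GGGCGG and 9 window peaks, 6 of them at starts of other genes such as Trim28, the corepressor of zinc finger proteins.

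Windows of members together held 168 distinct peaks of the 32527, and 34 of 35 members (97.1%) had at least 1. The same held for 77.2% of coding genes, 93% of those with a CpG-rich start and 91.4% of numbered Zfp genes. The median was 5 peaks per member (quartiles 4 to 7), beside 3 (1 to 6) for all coding genes, 4 (2 to 7) for those with a CpG-rich start and 3 (2 to 5) for numbered Zfp genes. At least 9 window peaks were found at 11% of coding genes, and 6 members reached that number. Of the 168 peaks, 19 lay in the windows of more than 1 member, as some members are neighbours, among them Zbtb1 and Zbtb25, Zbtb6 and Zbtb26, Zbtb34 and Zbtb43, and Zbtb8a, Zbtb8b and Zbtb8os.

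**Figure D5:**
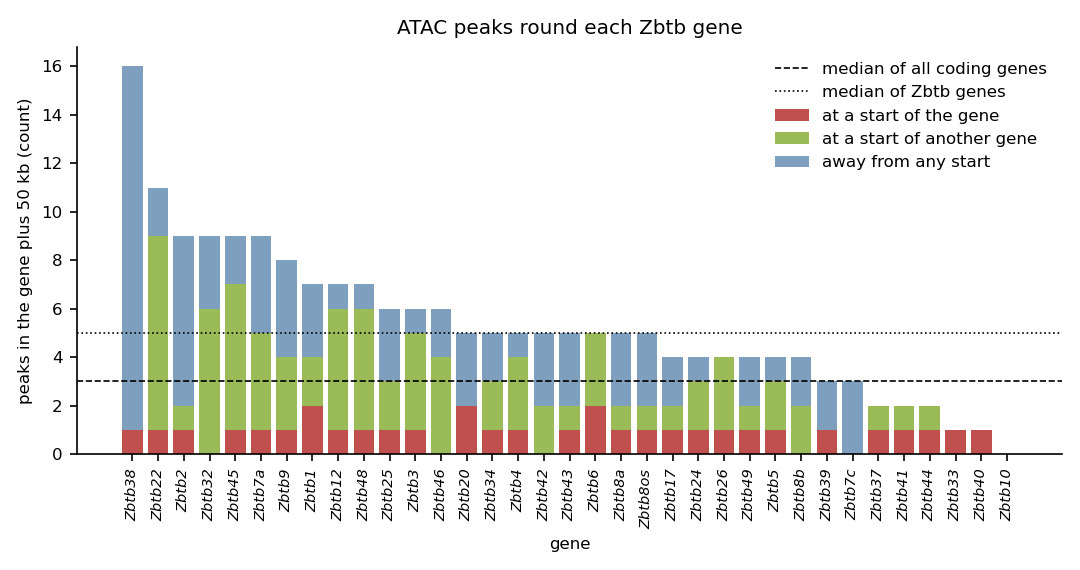
Number of peaks in the gene plus 50 kb (y axis) for each of 35 Zbtb genes (x axis), split by the class of the peak, with lines at the medians of all coding genes (3) and of Zbtb genes (5). Zbtb38 stands out with 16 peaks, 15 of them away from any start, and Zbtb10 has none.

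Peaks round members leaned to starts. Of the 168, 71 (42.3%) lay away from any start, beside 64.6% of all peaks. Windows centred on genes hold starts by construction, so the background of all peaks is not drawn from windows of the same kind. Of the 71, 37 were nearest to a member and 33 (46.5%) had their centre in an intron, beside 47% of all away peaks. Their width had a median of 496 bp (240 to 1278), beside 465 bp.

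Several members shared a promoter peak with a neighbour. Of 29 members with a promoter peak 10 (34.5%) shared one with a start of another coding gene, beside 22.7% of coding genes with a promoter peak. For 8 of the 10 a partner lay on the opposite strand. Zbtb1 and Zbtb25, and Zbtb6 and Zbtb26, shared with each other. Each such peak counts for both genes, here and in the background, so the 10 are not separate loci. The closest pairs of starts were those of Zbtb22 and Tapbp (5 bp apart, same strand), where Tapbp encodes tapasin of the peptide loading complex, and Zbtb49 and Lyar (13 bp, opposite strands). Zbtb6 and Zbtb26 lay 50 bp apart on the same strand, and both faced Rabgap1, at 108 and 158 bp. Zbtb9 lay 50 bp from Ggnbp1, and Zbtb8os lay 325 bp from Rbbp4, a histone chaperone, on the opposite strand. A peak at such a site cannot be assigned to 1 of the genes.

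Short cores were counted in the 30 distinct promoter peaks of members, on both strands, beside the 10738 promoter peaks of coding genes. In the central 200 bp GGGCGG was found in 73.3% of member peaks and 51.2% of all promoter peaks, and CCGGAAG, the core of ETS factors, in 26.7% and 12.2%. TGGGAA was found in 6.67% (2 of 30 peaks) and 13%, and CAGCTG, an E-box, in 3.33% (1 of 30 peaks) and 12.7%. TGTGGT, the core of RUNX factors, was found in 10% and 8.92%, and ATTGG in 23.3% and 21.2%. Over whole peaks TGGGAA was in 15 of 30 member peaks (50%) and in 48.9% of all promoter peaks, so the order seen in the centre was not kept. Member promoter peaks had a median GC content of 64.7% and the others 61%, which moves with the GC-rich cores, and its part in these shares was not tested.

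The 71 away peaks were searched in the same way. In their central 200 bp TGTGGT was found in 21.1%, CAGCTG in 15.5% and TGGGAA in 11.3%, beside 25.6%, 25.6% and 16.4% of all 21005 away peaks. GGGCGG was in 18.3% of them and 9.29% of all away peaks, and CCGGAAG in 1.41% and 2.35%. As in promoter peaks, the share was higher than the background for GGGCGG and lower for TGGGAA and CAGCTG. For CCGGAAG and TGTGGT the order was the opposite of that in promoter peaks, on few matches. CCGGAAG was in the centre of 1 of 71 away peaks, and TGTGGT in that of 3 of 30 promoter peaks. Over whole peaks TGTGGT was lower at members in both classes, with 30% and 33.5% in promoter peaks and 39.4% and 45.5% in away peaks.

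CTCGCGAG, a palindrome found at sites bound by Zbtb33, occurred in 1 of the 30 member promoter peaks, that of Zbtb40, and in 3.23% of all promoter peaks. The 30 bases round it are shown on the minus strand, the strand of Zbtb40, with the core in capitals.
Zbtb40, chr4:136604751-136604780: gggacagccttCTCGCGAGaccgtccccca
The peak of Zbtb40 was 971 bp wide and held no GGGCGG, whereas 90% of member promoter peaks held that core somewhere in the peak.

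The placement of starts was checked with RefSeq promoter sequences, which are given for build GRCm38.p6. Of the members 31 had such a sequence, and all 37 sequences were found once in mm9 by exact match. A peak lay within 1 kb of a RefSeq start for 26 of the 31. Zbtb20 was the member whose call differed, since its RefSeq start lay 326735 bp from a peak while the GENCODE starts under the wide peak lay far upstream of it. For Zbtb46 a RefSeq start lay 12978 bp from a peak, closer than its GENCODE starts. That distance was under the median of 29022 bp for coding genes with a CpG-rich start and no promoter peak.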

How the data were processed

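ATAC-Seq peaks of 6 Beko libraries (3 DMSO, 3 GSI, 24 h) were analysed, with groups taken from the labels. Reads were trimmed by the authors (trimGalore) and mapped to mm9 (HISAT2, version 2.2.1 per the submitters' processing notes) with 1 alignment per read, which places reads from repeats at 1 of several sites. Duplicates were then discarded (Picard). Peaks were called without input by MACS2, joined over replicates by MSPC and retained when shared by 3 of 6 libraries outside blacklisted regions, so a peak of 1 treatment can be retained. A shift of read ends for the transposase is not given in the sources used here. The deposited list holds chromosome, start (counted from 0) and end in bp, and the deposited score is 0 for every peak, so no height was used. Coordinates are printed counted from 1.

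Peaks were set against the mm9 assembly NCBIM37 and its GENCODE vM1 annotation with pysam 0.24.0, scipy 1.17.1, numpy 2.4.6, matplotlib 3.10.9 and Python 3.11.15. A promoter peak lay within 1 kb of a transcript start, and a window was the gene plus 50 kb. Exon or intron was read at each peak's centre. All results are descriptive, without a test, and were set beside the same measure over all coding genes. Peak lookups and motif searches were tested on simulated data. Named genes were the lymphoid list, members without a promoter peak, those with most window peaks and widest promoter peaks, members with shared promoter peaks and the other role lists. Members and lists were chosen with earlier results of these data known. Distance limits, window sizes, peak width limits, motif settings and CpG limits were varied. The GSI against DMSO comparison was left out because the list has no values per library.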

Additional observations from a re-analysis of the deposited data

How the results depend on the processing

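For 8 results 32 alternatives were run, and 24 values stayed within the 95% interval of the reported value or, for the lymphoid count, within 1.5 times of it. The share of members with a promoter peak lay between 77.1% and 85.7% under all settings run, and the RefSeq starts, chosen after the data were seen, gave 83.9%. The median number of window peaks followed the window, with 2, 3 and 9 peaks for the gene plus 10, 20 and 100 kb, beside 1, 2 and 5 for all coding genes. The median accessible share was 77.9% over 500 bp and 21.2% over 2 kb on either side, by construction. Among peaks of at least 500 bp, 28.5% of member window peaks lay away from any start, beside 47.2% of all peaks, and the cause was not tested. TGGGAA was in 6.67% of member promoter peaks when only the central 200 bp were searched, which is a shorter sequence. Under stricter CpG limits (ratio 0.75, GC 55%), 62.9% of members had a CpG-rich start, beside 24.9% of coding genes.

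No paired analysis was possible because each peak is listed once for all libraries together, and leaving out a replicate was not run either. A site absent from the list fell short of the required 3 of 6 libraries or was blacklisted, which does not show that the DNA was closed, and the depth that limits this was not used here.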
